A study of Sus scrofa with 6 samples.

Results

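Heat shock proteins and their partner chaperones were examined in 6 pig keratinocyte clones, 3 from central cornea and 3 from conjunctiva. The members were the genes whose symbol, as the only one of a probe set in the array's annotation table, begins with HSPA, HSPB, HSPD, HSPE, HSPH, HSP90 or DNAJ, or with CCT and a digit, or is TCP1. This gave 51 genes with 81 probe sets, out of 6765 named genes and 23999 probe sets tested. Each gene was read from the probe set with the highest mean over the 6 arrays, and values are log2 signals made by the authors with the robust multi-array average (RMA). By known role they comprised 6 stress-inducible and 9 constitutive chaperones of the cytosol and nucleus, 8 of the endoplasmic reticulum (ER), 6 of mitochondria and 6 subunits of the cytosolic chaperonin. A further 9 were other J-domain genes and 4 were other small heat shock genes. Another 2, HSPB11 and HSPBP1, match by name and were not classed as chaperones here, and 1 was the distant relative HSPA12A.

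The groups differ by tissue of origin, central cornea or conjunctiva, in biopsies taken 6 mm from the limbus of white domestic pigs. The labels name no allele, age or treatment for either. All were grown on irradiated mouse 3T3-J2 fibroblasts as feeders, and each clone arose from a single picked cell, so every array describes 1 clone. The labels name 2 animals without assigning clones to them, so p-values measure only the spread between these cultures, which may share an animal. The instrument files of all 6 arrays name a time course of irradiation as the project, which the labels leave unexplained.

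Heat shock proteins keep other proteins folded. HSP70 proteins bind exposed hydrophobic stretches in cycles of ATP use, J-domain proteins (the DNAJ genes) bring them their clients and start the cycle, and exchange factors end it. HSP90 proteins finish the folding of kinases and receptors, small heat shock proteins hold unfolded clients, and barrel-shaped chaperonins enclose them. In stratified epithelia the small heat shock protein HSPB1 is known to rise as keratinocytes differentiate.

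Measured keratinocyte markers averaged 8.98 to 9.69 per corneal clone and 9.01 to 9.18 per conjunctival clone (7 of 20 listed markers were measured), with SFN at 12.46 or more and DSP at 11.61 or more in every clone. ITGA6 was dim, at 3.39 to 3.90. KRT5, KRT14 and TP63 were not analysed here. Of 11 fibroblast markers 9 were measured. Their mean ran from 6.08 to 6.21 in cornea and from 5.68 to 6.72 in conjunctiva, where conjunctiva 2 was highest and FN1 reached 8.27 against 4.22 in conjunctiva 1. THY1 was at 9.66 to 12.24 in all clones. Leukocyte and melanocyte markers, 4 of 7 measured in each list, averaged at most 3.97 and 4.08 in any clone, below the array medians of 4.40 to 4.48. The 4 endothelial markers averaged 4.82 to 5.22, led by PECAM1. RNA quality was read from a pair of control probe sets each for actin and GAPDH, as the 3' signal minus the 5' signal. For actin it was 0.77 ± 0.31 (corneal clones) and 0.87 ± 0.29 (conjunctival clones) in log2 units (SD, n = 3). For GAPDH it was -0.13, 0.25 and 0.29 in corneal clones 1, 2 and 3 and 0.23, 0.42 and 0.36 in the conjunctival ones, with cornea 1 lowest in both controls.

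No chaperone gene passed the test between the tissues. None was under adjusted p 0.05 in limma over all probe sets (0 of 51, where the share over all probe sets was 0%), and each stood at an adjusted p of 0.9999. At an unadjusted p under 0.05 there was 1 member, DNAJC9, against 3.12% of all genes. Without cornea 3 the count was 6 (11.8%, against 6.37% of all genes in that fit), and without cornea 2 it was 0 (against 3.36%). Of the 51 members 26 were higher and 25 lower in conjunctiva (51%, against 53.5% of all genes higher), with a median difference of 0.004 on the log2 scale beside 0.0141 for all genes. No member differed by 2-fold between tissue means, which 0.887% of genes did. The 95% confidence interval of the difference lay inside 2-fold in both directions for 46 members (90.2%, and 89.3% of all genes). Only HSPH1 had tissue groups that did not overlap (1.96% of members, against 6.71% of genes).

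**Figure D1:**
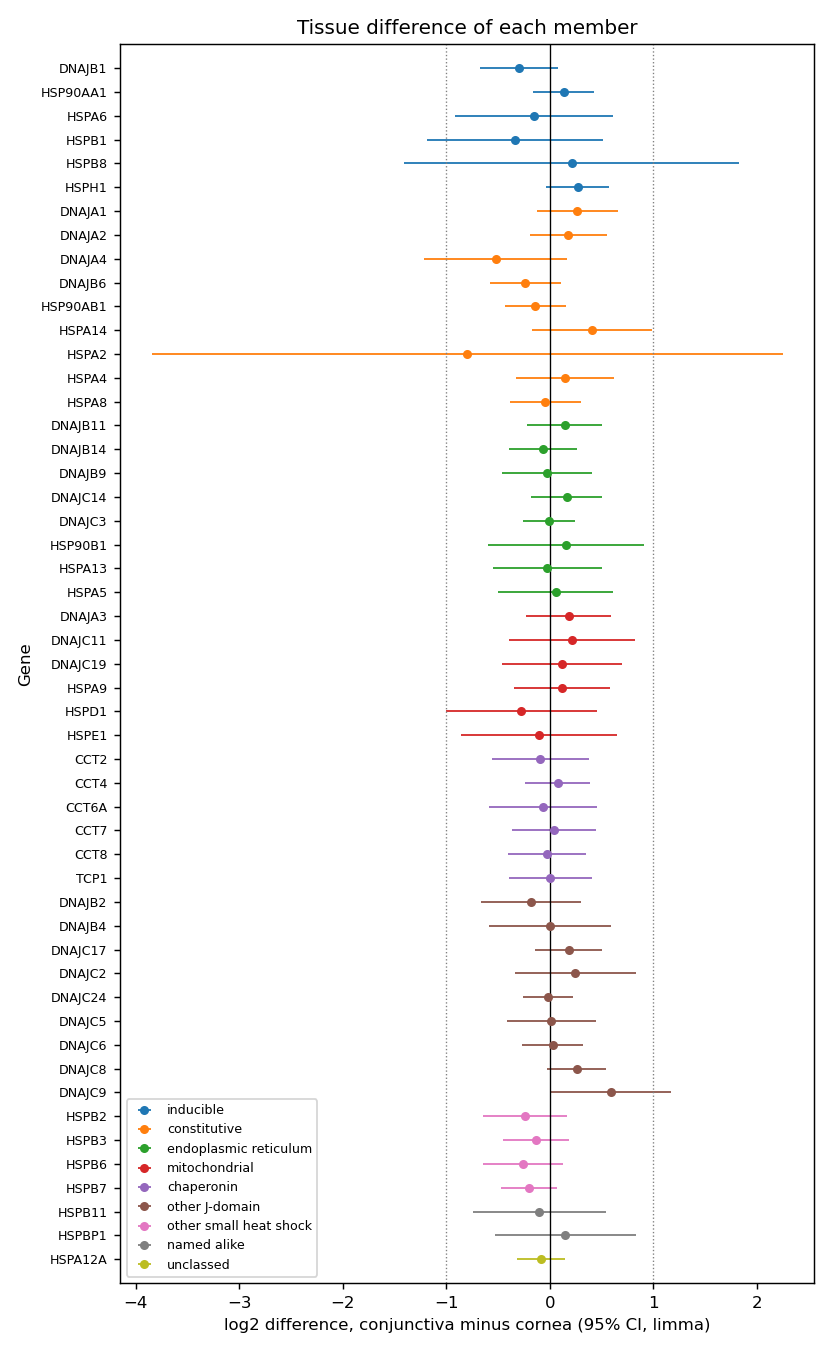
Log2 difference between tissue means (conjunctiva minus cornea, horizontal axis) with its 95% confidence interval from limma for the 51 members, coloured by class; dotted lines mark 2-fold. All points lie between -0.80 for HSPA2 and 0.59 for DNAJC9, and the widest intervals belong to HSPA2 and HSPB8.

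HSPH1 encodes HSP110, an exchange factor that helps HSP70 release its client and that is induced by heat. Its level was 8.25, 8.00 and 8.23 in corneal clones 1, 2 and 3 and 8.55, 8.27 and 8.47 in the conjunctival ones. The conjunctival values all lay above the corneal ones, but cornea 1 and conjunctiva 2 were nearly equal. The difference of 0.27 (SE 0.13, 1.21-fold) did not pass in limma (adjusted p = 0.9999). Blocked by clone number it reached an unadjusted p of 0.0421 in limma, at an adjusted p of 0.938.

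DNAJC9 encodes a J-domain protein that also chaperones histones. It stood at 5.52, 4.55 and 4.88 in cornea and at 5.70, 5.48 and 5.55 in conjunctiva. The conjunctival clones were alike and 2 of the corneal clones were lower, while cornea 1 lay within the conjunctival range. The difference of 0.59 (SE 0.24, 95% interval 0.01 to 1.18) became 0.86 without cornea 1 and 0.38 without cornea 2. The arrays ran on 2 fluidics stations of the instrument, with cornea 1, conjunctiva 2 and conjunctiva 3 on station 1 and the others on station 2. Within station 1 the DNAJC9 difference was -0.01 and within station 2 it was 0.99. The limma adjusted p was 0.9999, and 0.938 in the fit blocked by clone number. Cell cycle genes moved with it in part: as the mean deviation of 19 measured genes from their 6-clone means, cornea 2 was at -1.09 and the other clones lay between -0.02 and 0.41, with cornea 3 highest. The part of the cell cycle in the DNAJC9 difference was not tested.

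Blocking by the clone number raised the members at an unadjusted p under 0.05 from 1 to 2 (DNAJC9 and HSPH1, 3.92%), where the share of all genes rose to 5.99%. None passed after adjustment.

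Over the 6 clones 12 members ranged by at least 1 log2 unit (23.5%, against 16.5% of all genes). The median range was 0.66 for the members and 0.58 for all genes. In cornea 2 lay the lowest value of 17 members (33.3%, against 21.5% of genes), and in cornea 3 the highest value of 15 (29.4%, against 24.1%).

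**Figure D2:**
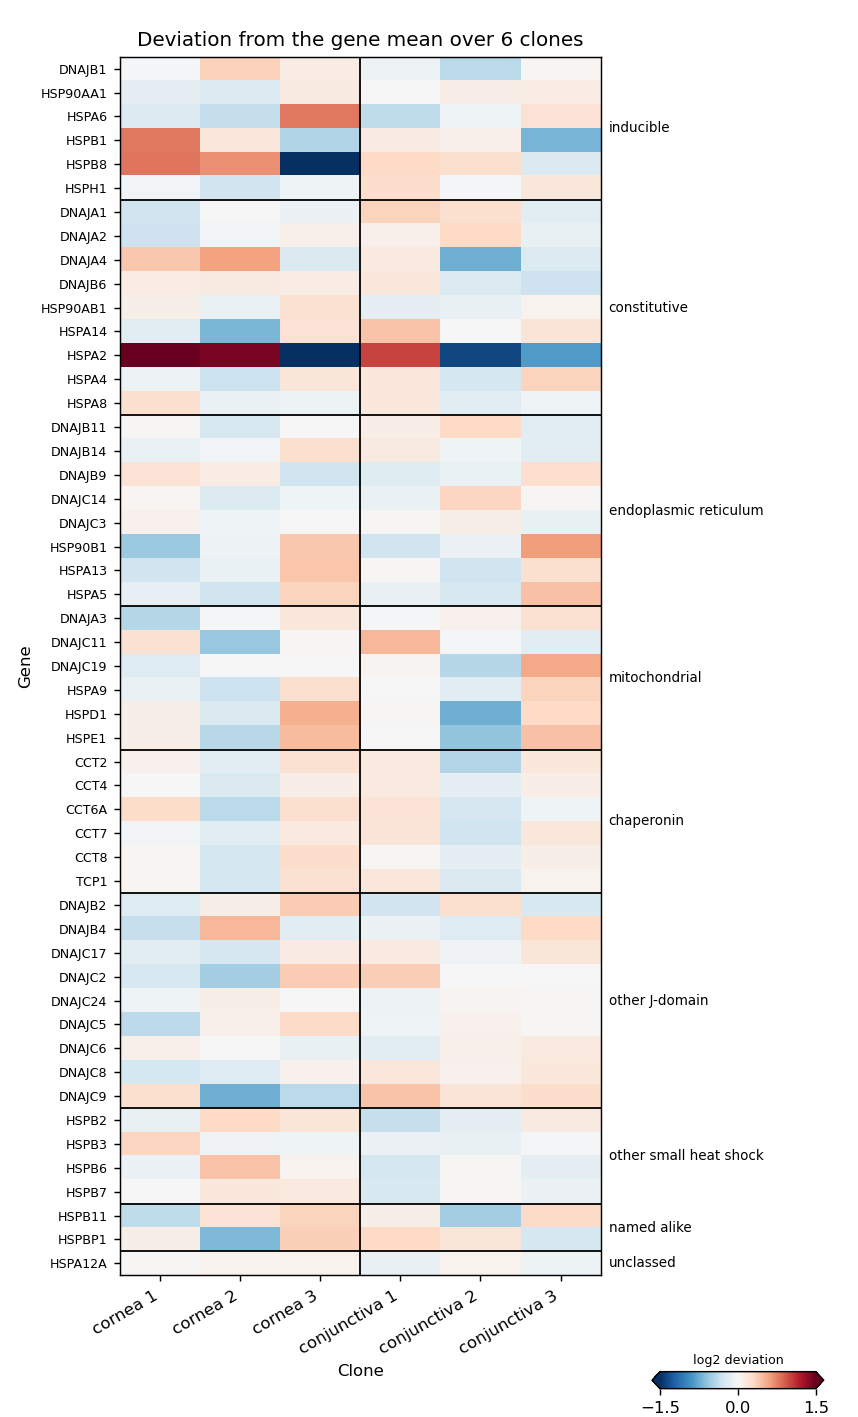
Deviation of each of the 51 members (rows, grouped by class) from its own mean over the 6 clones (columns), in log2 units; colours saturate at 1.5, which HSPA2 exceeds in cornea 1 and cornea 3 and HSPB8 in cornea 3. The HSPA2 row is the strongest, and most other rows are pale with no change of colour at the line between the tissues.

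Among the inducible genes the small heat shock genes varied most. HSPB1 encodes HSP27, which binds actin and intermediate filaments. Its values were 12.95, 12.32 and 11.71 in cornea and 12.29, 12.24 and 11.47 in conjunctiva. In each tissue clone 3 was lowest, and the groups overlapped, with a difference of -0.33 (SE 0.36) that was -0.02 without cornea 1 and -0.64 without cornea 3. Within stations 1 and 2 it was -1.10 and 0.27.

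HSPB8 encodes HSP22, which works with the co-chaperone BAG3 to send misfolded proteins to autophagy. It was at 7.56, 7.45 and 4.95 in cornea and at 7.05, 6.99 and 6.54 in conjunctiva. Cornea 3 stood far below the rest, and among the conjunctival clones number 3 was lowest too. The range of 2.62, 6.14-fold, was matched or exceeded by 1.57% of genes. The tissue difference was 0.21 (SE 0.68), and -0.64 without cornea 3. Within stations 1 and 2 it was -0.80 and 0.86. For HSPB1 and HSPB8 clone 3 was the lowest of each tissue, as for 13.7% of all genes and 3 of the 51 members (5.88%).

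The other inducible genes were steadier or dim. HSP90AA1, the inducible cytosolic HSP90, lay between 11.41 and 11.75 in all clones (difference 0.14, SE 0.12). DNAJB1, the J-domain partner of HSP70 in the heat shock response, was at 9.32, 9.68 and 9.44 in cornea and at 9.25, 8.93 and 9.37 in conjunctiva (-0.30, SE 0.16). Conjunctiva 2 was lowest, and without it the difference was -0.17. HSPA6, an HSP70 gene that is nearly silent without stress, was at 4.08, 3.92 and 5.07 in cornea and at 3.90, 4.21 and 4.50 in conjunctiva. Its mean of 4.28 lay below the median probe set, and in each tissue clone 3 was highest. HSPA1A and HSPA1B were not analysed here, and cross-hybridisation between similar HSP70 genes was not tested.

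Of the constitutive genes HSPA2 stood apart from all other members. It encodes an HSP70 best known from the testis that is also made in epidermal keratinocytes. Its level was 8.56, 7.70 and 3.75 in corneal clones 1, 2 and 3 and 7.29, 4.91 and 5.42 in the conjunctival ones. Both tissues thus held high and low clones. The range of 4.81, 28-fold, was reached by 0.163% of all genes. The difference of -0.80 (SE 1.28, 95% interval -3.85 to 2.25) was -2.26 without cornea 3 and 0.15 without cornea 1. Its sign turned between the stations: within station 1 it was -3.40, at an adjusted p of 0.484 in limma, and within station 2 it was 1.56.

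Genes of cornification, the making of the outer layer of stratified epithelia, varied across the same clones. As a mean deviation over 8 measured genes they were at 0.56, 1.21 and -0.49 in corneal clones 1, 2 and 3 and at 0.40, -1.17 and -0.51 in conjunctival clones 1, 2 and 3. The 3 clones above 0 were the 3 with HSPA2 above 7. KRT1, a keratin of differentiating cells, was at 8.76, 11.05 and 6.88 in cornea and at 9.02, 4.57 and 6.34 in conjunctiva. The part of differentiation in the HSPA2 values was not tested, and in bulk samples fewer cells of a kind and less RNA per cell cannot be told apart.

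DNAJA4, a J-domain partner of HSP70, was again high in the same 3 clones. It was at 5.84, 6.05 and 5.22 in cornea and at 5.59, 4.71 and 5.24 in conjunctiva, a difference of -0.52 (SE 0.29), and of -0.87 and -0.04 within stations 1 and 2. Its range of 1.33 was matched by 8.25% of genes, and its second probe set, below the median probe set, differed by -0.03.

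**Figure D3:**
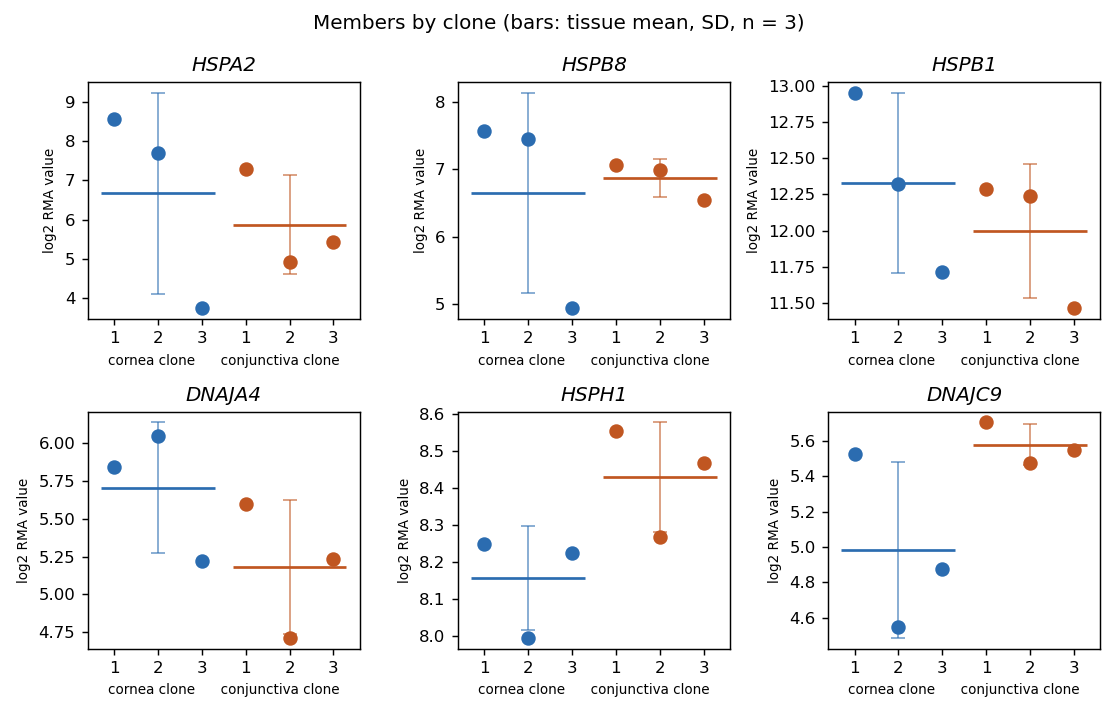
Log2 RMA values (vertical axis, scale differs by panel) of 6 members in corneal (blue) and conjunctival (orange) clones 1 to 3, with the tissue mean as a line and the SD as a bar. HSPA2 ranges from 3.75 to 8.56 with high and low clones in both tissues, and HSPH1 alone has no overlap between the tissues.

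The abundant housekeeping chaperones HSPA8 and HSP90AB1 were nearly level. HSPA8, the constitutive HSP70 that recycles clathrin coats and folds new proteins, ranged from 12.31 to 12.70 (difference -0.04, SE 0.14). HSP90AB1, the constitutive HSP90, ranged from 11.33 to 11.71 (-0.14, SE 0.12). HSPA4, an exchange factor of the HSP110 kind, was at 9.46 ± 0.25 in cornea and 9.61 ± 0.30 in conjunctiva (SD, n = 3). It varied more, with a range of 0.66 that 39.9% of genes matched or exceeded. These values overlapped between the tissues for all of the 3 genes. In HSPA4 clone 3 was highest in each tissue, but another probe set had it lowest in each and differed by 0.49 (SE 0.25). A further HSPA4 probe set, below the median probe set, differed by -0.11 (SE 0.12).

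The J-domain partners of the cytosol also overlapped between the tissues. DNAJA1 and DNAJA2, which serve HSPA8, differed by 0.27 (SE 0.16) and 0.18 (SE 0.16). DNAJA1 was highest in conjunctiva 1 at 9.66, and lowest in cornea 1 at 9.03. DNAJB6, which blocks protein aggregation and binds keratin filaments, was at 9.66, 9.68 and 9.65 in cornea and at 9.71, 9.34 and 9.23 in conjunctiva. Its corneal clones were within 0.03 of each other and conjunctival clones 2 and 3 were lower, with a difference of -0.23 (SE 0.14). All 3 other DNAJB6 probe sets had the same sign (-0.21 to -0.36), but those at -0.21 and -0.26 lay below the median probe set. HSPA14, an HSP70 relative at the ribosome, was at 7.57, 7.04 and 7.95 in cornea and at 8.15, 7.71 and 7.92 in conjunctiva. Cornea 2 was lowest, and the difference of 0.41 (SE 0.24) was 0.17 without it.

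Of the 8 ER genes 3 had both clones numbered 3 as their 2 highest (37.5%), as did 13 of the 51 members (25.5%) and 16.3% of all genes. HSPA5 (BiP), the HSP70 of the ER and a sensor of its load, was at 11.00, 10.82 and 11.46 in cornea and at 11.01, 10.88 and 11.56 in conjunctiva. HSP90B1 (GRP94), the HSP90 of the ER, was at 9.18, 9.67 and 10.14 in cornea and at 9.44, 9.66 and 10.37 in conjunctiva. For both genes each clone 3 exceeded all 4 other clones, while the tissue differences were 0.06 (SE 0.23) and 0.16 (SE 0.32). HSPA13, a membrane-associated HSP70 relative, was likewise highest in the 2 clones numbered 3, at 8.15 and 7.97, against 7.44 to 7.75 in the others.

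The ER J-domain genes did not share this order. DNAJB11, which binds BiP clients in the lumen, was at 7.62, 7.37 and 7.61 in cornea and at 7.70, 7.90 and 7.43 in conjunctiva, highest in conjunctiva 2. DNAJB9, an inducible BiP partner, was at 6.99, 6.88 and 6.47 in cornea and at 6.58, 6.66 and 7.02 in conjunctiva, so clone 3 was lowest in cornea and highest in conjunctiva. DNAJC3, which restrains stress signalling by the kinase PERK, stayed between 5.03 and 5.24. The membrane proteins DNAJB14 and DNAJC14 differed by -0.06 (SE 0.14) and 0.16 (SE 0.14). In the chosen probe sets all 5 overlapped between the tissues. The second DNAJC3 probe set, below the median probe set, did not overlap and differed by 0.22 (SE 0.11).

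Of the 6 mitochondrial genes 4 were highest in clone 3 of each tissue (66.7%), as were 15 of the 51 members (29.4%) and 21.4% of all genes. HSPD1 (HSP60) and HSPE1 (HSP10) form the barrel and lid of the mitochondrial chaperonin. HSPD1 was at 10.98, 10.68 and 11.42 in cornea and at 10.91, 10.16 and 11.19 in conjunctiva. HSPE1 was at 11.01, 10.51 and 11.39 in cornea and at 10.93, 10.33 and 11.35 in conjunctiva. In both tissues clone 3 was highest and clone 2 lowest for both genes, with tissue differences of -0.27 (SE 0.30) and -0.10 (SE 0.32). HSPA9 (mortalin), the HSP70 that pulls proteins into mitochondria, had the same order, from 9.44 in cornea 2 to 10.10 in conjunctiva 3.

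DNAJA3, a J-domain partner of mortalin, was also highest in clone 3 of each tissue, at 6.88 and 6.93, but lowest in clone 1, with cornea 1 at 6.28. The other J-domain genes of mitochondria had other orders. DNAJC11, a protein of the inner membrane folds, was at 6.56, 5.77 and 6.35 in cornea and at 6.83, 6.32 and 6.18 in conjunctiva, lowest in cornea 2. DNAJC19, of the import motor, ranged from 5.75 in conjunctiva 2 to 6.73 in conjunctiva 3. Their tissue differences were 0.18 (SE 0.17), 0.22 (SE 0.26) and 0.12 (SE 0.24), none past the threshold in limma.

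**Figure D4:**
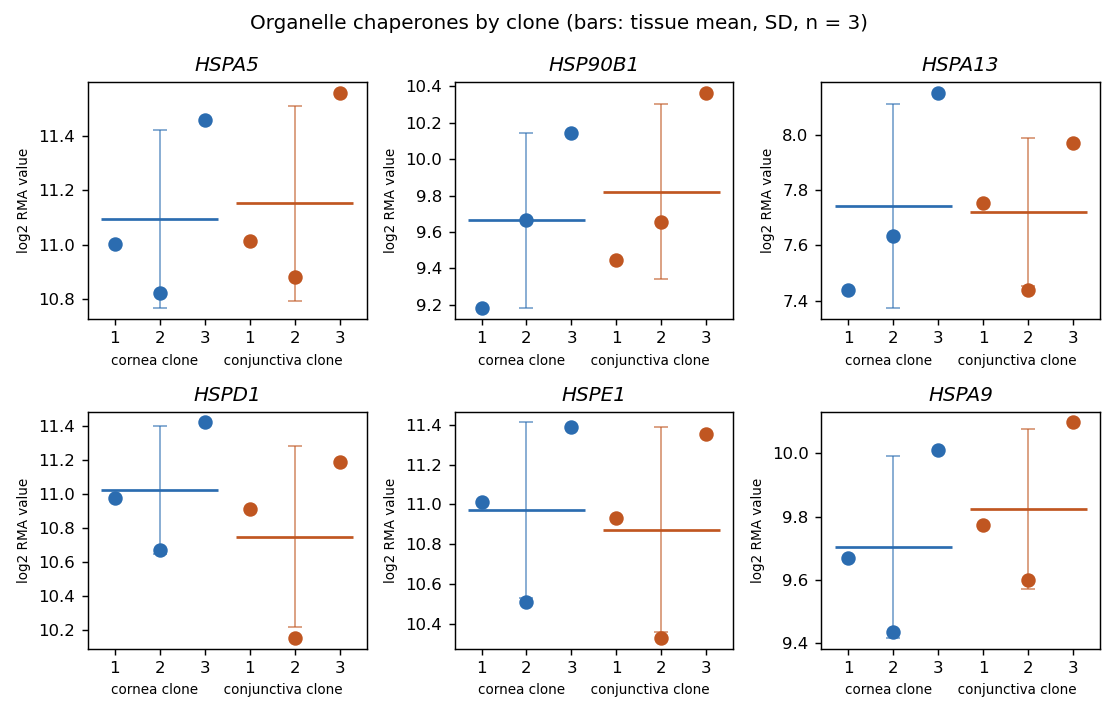
Log2 RMA values (vertical axis, scale differs by panel) of 3 ER and 3 mitochondrial chaperones in corneal (blue) and conjunctival (orange) clones 1 to 3, with the tissue mean as a line and the SD as a bar. In all 6 panels clone 3 is the highest of its tissue, and the tissue means lie within 0.27 of each other.

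The order by clone number was then fitted in limma, with the number tested beside the tissue, after these values had been seen. The labels do not say what a shared number means, and the orders by clone counted above were likewise chosen after the values were seen. At an unadjusted p under 0.05 there were 10 members (19.6%), against 16.9% of all genes, so the share was near the background. None of the members passed after adjustment (smallest adjusted p = 0.252), and over all genes the share was 0% as well. The 10 were HSPE1, HSP90B1, HSPB1, HSPD1, HSPA5, HSPA9, HSPA4, HSPA6, CCT6A and CCT2. They comprised 3 of 6 mitochondrial, 2 of 8 ER, 2 of 6 inducible, 2 of 6 chaperonin and 1 of 9 constitutive genes.

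The cytosolic chaperonin folds actin and tubulin in a ring of different subunits, of which 6 were measured. All 6 were lowest in clone 2 of each tissue, as were 16 of the 51 members (31.4%) and 16.0% of all genes. CCT2 was at 10.86, 10.64 and 11.03 in cornea and at 10.94, 10.36 and 10.95 in conjunctiva, and CCT6A at 10.02, 9.35 and 9.99 and at 9.96, 9.50 and 9.69. CCT4, CCT7, CCT8 and TCP1 ranged by 0.36 to 0.53 over the 6 clones. Tissue differences ran from -0.09 to 0.08. Cell cycle genes were also lowest in clone 2 of each tissue (-1.09 in cornea 2 and -0.02 in conjunctiva 2), and their part in the chaperonin values was not tested.

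Inducible, constitutive and ER genes were compared per clone as the mean deviation of a class from its 6-clone means. The inducible class was at 0.20, 0.06 and -0.22 in corneal clones 1, 2 and 3 and at 0.04, -0.02 and -0.06 in the conjunctival ones. The constitutive class was at 0.25, 0.10 and -0.23 in cornea and at 0.26, -0.25 and -0.13 in conjunctiva. The ER class ran the other way, at -0.09, -0.12 and 0.13 in cornea and at -0.05, -0.01 and 0.14 in conjunctiva. The ER class was thus highest in the clones where the inducible class was lowest, numbers 3 of both tissues.

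Single genes carried much of these class means. Without HSPB8 the inducible class lay between -0.07 and 0.10 in all clones, and cornea 3 became its highest. Without HSPA2 the constitutive class was at -0.00028, -0.06 and 0.05 in cornea and at 0.17, -0.12 and -0.04 in conjunctiva. With HSPA2 included, the inducible minus constitutive difference was -0.05, -0.05 and 0.02 in cornea and -0.22, 0.24 and 0.07 in conjunctiva. Its tissue means differed by 0.05. Without HSPA2 it was 0.20, 0.12 and -0.27 in cornea and -0.13, 0.10 and -0.02 in conjunctiva. Its sign thus turned in every corneal clone and in conjunctiva 3. With HSPA2 included, the ER minus constitutive difference was -0.35, -0.22 and 0.36 in cornea and -0.31, 0.24 and 0.27 in conjunctiva. It overlapped between the tissues too, with means of -0.07 ± 0.38 and 0.07 ± 0.33 (SD, n = 3). Without HSPA2 the ER minus constitutive difference was -0.09, -0.05 and 0.08 in cornea and -0.22, 0.11 and 0.18 in conjunctiva.

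**Figure D5:**
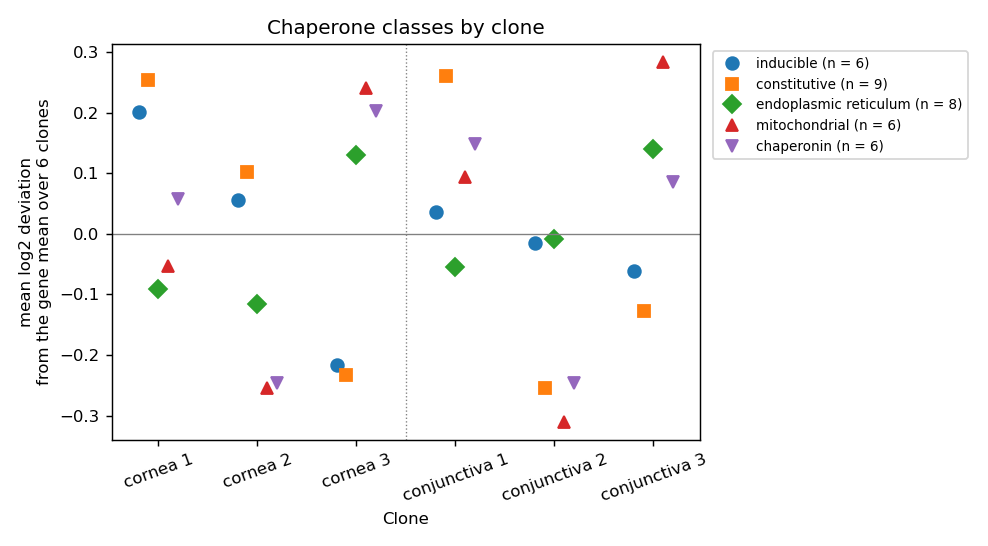
Mean log2 deviation from the gene means over the 6 clones (vertical axis) for 5 chaperone classes in each clone (horizontal axis), with n the number of genes. The ER and mitochondrial classes are highest in cornea 3 and conjunctiva 3, the chaperonin and mitochondrial classes lowest in cornea 2 and conjunctiva 2, and none of these 5 classes separates the tissues.

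As differences between the tissues, the class means were -0.03 for inducible, -0.08 for constitutive, 0.05 for ER, 0.045 for mitochondrial and -0.01 for chaperonin genes. With 1 fluidics station at a time they were -0.24, -0.44, 0.16, 0.04 and -0.14 in station 1, and 0.12, 0.33, -0.06, 0.10 and 0.17 in station 2. The sign turned between stations for 4 of the 5 classes. Each station held 3 arrays, so 1 tissue rested on a single clone in each.

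Other small heat shock genes were lower in conjunctiva without passing. HSPB2, HSPB3, HSPB6 and HSPB7, which are known chiefly from muscle, differed by -0.24, -0.14, -0.26 and -0.20, 0 of 4 higher (against 53.5% of all genes). As a class mean deviation they were at 0.03, 0.21 and 0.08 in corneal clones 1, 2 and 3 and at -0.23, -0.06 and -0.03 in the conjunctival ones, without overlap, though each gene alone overlapped. HSPB6 was at 5.30, 5.82 and 5.44 in cornea and at 5.12, 5.40 and 5.25 in conjunctiva, with cornea 2 highest and conjunctiva 1 lowest. The class median was -0.22, between -0.31 and -0.13 when 1 clone was left out, 0.001 within station 1 and -0.44 within station 2. HSPB2 and HSPB3 lay below the median probe set. The lean was not particular to this class: of the melanocyte markers 0 of 4 were higher in conjunctiva and of the leukocyte markers 1 of 4. The means of those 2 lists overlapped between the tissues. How often means of 4 genes separate was not tested.

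Of the other J-domain genes 7 of 9 were higher in conjunctiva (77.8%, against 53.5% of all genes), with a median of 0.03 and a mean of 0.13. DNAJC8, a splicing factor partner, was at 8.17, 8.24 and 8.50 in cornea and at 8.61, 8.49 and 8.59 in conjunctiva, a difference of 0.26 (SE 0.12). Cornea 3 reached the conjunctival range, and the second DNAJC8 probe set differed by -0.05. DNAJC2, a ribosome-bound partner of HSPA14, was at 5.69, 5.42 and 6.32 in cornea and at 6.31, 5.94 and 5.93 in conjunctiva (0.25, SE 0.24). DNAJC17 differed by 0.18 (SE 0.14). DNAJB2, DNAJB4, DNAJC5 (the cysteine string protein of secretory vesicles), DNAJC6 (auxilin, which uncoats clathrin vesicles) and DNAJC24 (of diphthamide synthesis) differed by -0.18 to 0.03.

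The remaining 3 members overlapped between the tissues. HSPB11, a cilium transport protein, differed by -0.10 (SE 0.27) and HSPBP1, an HSP70 exchange factor, by 0.15 (SE 0.28). HSPA12A ranged by 0.17 below the median probe set.

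Of the members 19 had more than 1 probe set. Of their 30 other probe sets 14 had the sign of the chosen one and 16 the opposite sign, and 11 lay below the median probe set. In 3 of the 30 the tissue groups did not overlap, where the share of all probe sets was 7.28%. They belonged to HSPA8 and DNAJC3, higher in conjunctiva, and to DNAJB6, lower. Those of DNAJC3 and DNAJB6 lay below the median probe set. HSPA8 showed the clearest disagreement. Its 3 other probe sets, at means of 4.29 to 5.57 against 12.46, were higher in conjunctiva by 0.28, 0.32 and 0.52, where the chosen one differed by -0.04. Of these the one at 0.52 read 5.07, 5.47 and 5.37 in cornea and 6.15, 5.75 and 5.59 in conjunctiva, without overlap, at an adjusted p of 0.9999 in limma. For HSP90AA1 2 of 4 others were lower in conjunctiva, and 1 of them stood at 10.64 in cornea 1 against 9.14 to 9.56 in the other clones. HSP90B1 had its second probe set at -0.17, with clone 3 again highest in both tissues. For HSPA13 the second probe set read 5.15, 4.88 and 5.52 in cornea and 5.28, 5.06 and 5.03 in conjunctiva. There clone 3 was highest in cornea but lowest in conjunctiva. HSPA9 differed in order: 1 of its other probe sets read 7.57, 5.74 and 6.59 in cornea and 6.49, 5.12 and 6.44 in conjunctiva. There clone 2 was again lowest but clone 1 highest. The remaining HSPA9 probe set also had clone 2 lowest in each tissue. In cornea its clone 1 was highest, and in conjunctiva its clones 1 and 3 both read 8.26. Which transcripts these probe sets read was not tested.

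Partners and regulators of the chaperones came from lists outside the members. Of 31 listed co-chaperones and heat shock factors 25 were measured, 18 higher and 7 lower in conjunctiva (72%, against 53.5% of all genes higher). Their median was 0.13, beside 0.0141 for all genes. None was past adjusted p 0.05 in limma or at an unadjusted p under 0.05 (against 3.12% of all genes). BAG1, an HSP70 exchange factor, led by p at 8.27, 8.40 and 7.86 in cornea and 8.87, 9.16 and 8.22 in conjunctiva (0.57, SE 0.27). PDCL3, a chaperonin cofactor, was without overlap at 7.80 to 8.03 against 8.08 to 8.21 (0.23, SE 0.11). It was the only gene of the list without overlap (4%, against 6.71% of all genes). TTC4 and CDC37, both HSP90 partners, differed by 0.20 (SE 0.13) and 0.14 (SE 0.105).

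Of 31 listed genes of ER folding and the unfolded protein response 16 were measured, 9 higher and 7 lower, with a median of 0.035. The share higher was 56.2%, against 53.5% of all genes. XBP1, a transcription factor of that response, differed by 0.35 (SE 0.18), SDF2L1 by 0.30 (SE 0.16), CRELD2 by 0.28 (SE 0.20) and the lectin chaperone CANX by 0.18 (SE 0.12). Of 13 mitochondrial partners 6 were measured, 4 higher and 2 lower (66.7% higher, against 53.5% of all genes). GRPEL1, YME1L1 and TIMM44 differed by 0.15, 0.14 and 0.08, and TRAP1, the mitochondrial HSP90, by -0.16. None of these lists held a gene past the threshold in limma, at adjusted p = 0.9999 for all.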

How the data were processed

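The authors deposited log2 values made with RMA, per the submitters' processing notes; its version is not given in the sources used here. RMA equalises the distributions of the arrays and so hides any change in overall RNA content. Fits covered 23999 probe sets without a filter, leaving out 124 controls. Gene names came from the array's annotation table (10069 probe sets with 1 symbol, 198 with several, 13732 unnamed). Of the 81 member probe sets 78 were found in a RefSeq table (assembly Sscrofa11.1), with 0 symbols differing. No coordinates or sequences are given.

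Conjunctiva minus cornea was fitted over all probe sets with limma 3.58.1 in R 4.3.3 (lmFit, eBayes, two-sided, Benjamini-Hochberg, threshold 0.05), checked on simulated data. Classes were described by counts, medians and means, with no test. Values of every member of the inducible, constitutive and ER classes are given. Of each other class these are the 4 with the smallest p and the 2 with the widest range, and of each partner list the 4 with the smallest p. HSPE1, DNAJC19 and others beyond this were added after their values were seen. The members and lists were chosen with earlier results of these data known.

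Deviations from the tissue means were correlated between clones sharing a number, with r of 0.35 (number 1), 0.17 (number 2) and 0.35 (number 3) over probe sets. Pairs with unlike numbers had r from -0.38 to 0.11, the 0.11 being cornea 2 with conjunctiva 1, so number 2 stood out little. Deviations from a shared mean depend on each other, so these r values are not independent. The number was therefore fitted as a block too. Other alternatives were the fluidics station as a block or alone, the fluidics module as a random block (statmod 1.5.0; each of the 4 module numbers held 1 tissue only), array centring, trend and robust options, a filter, 1 probe set per gene and leaving out each clone. All arrays were scanned on 1 day. The number of arrays limits the precision.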

Additional observations from a re-analysis of the deposited data

How the results depend on the processing

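Chosen after seeing the data were the fits within a station, with the module as a random block, with the clone number tested and without HSPA2 or HSPB8. The count of members past adjusted p 0.05 was 0 in all 15 alternatives (0 to 0 without 1 clone), where the smallest adjusted p of a member was 0.484. Over all probe sets it was 2 with trend and robust options and 1 with 1 probe set per gene, and 0 otherwise. At an unadjusted p under 0.05 the 648 probe sets became 1204 with the replicate block, 259 with the filter on low values, 163 with 1 probe set per gene, 1435 within station 1 and 538 to 1038 without 1 clone (1038 without cornea 3, 1025 without conjunctiva 3). The 1 member became 2 with the replicate block, 2 with array centring, 0 with the station as a block, 0 with the filter, 4 and 2 within stations 1 and 2, and 0 to 6 without 1 clone. The 6 (11.8%, against 6.37% of all genes in that fit) arose without cornea 3. Without cornea 2 the count was 0 (against 3.36%). Apart from these counts, the replicate block changed no call; the class means are the same by construction.

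Of 112 class differences under an alternative 7 moved by more than the spread between clones: within station 1 the inducible (-0.24), constitutive (-0.44), other J-domain (0.22) and other small heat shock (-0.0665) means, within station 2 the constitutive (0.33) and other small heat shock (-0.38) means, and the other J-domain value as a median (0.029). Of 120 differences between classes per clone 2 moved. They were inducible minus constitutive in cornea 3 with the filter (-0.18) and in conjunctiva 2 without HSPA2 and HSPB8 (0.0496). The spread used for the 120 included HSPA2, and leaving out HSPA2 alone was not among them. It took inducible minus constitutive from -0.05 to 0.20 in cornea 1 and from 0.02 to -0.27 in cornea 3. Each station held 3 arrays, and the cause was not tested. Without 1 clone at a time 27 members changed the sign of their difference at least once and 24 kept it. Array centring made 58.8% of members higher in conjunctiva, from 51%, and 56.3% of all probe sets, from 49.2%.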

Other observations

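Several partners of the chaperones also ordered by clone number, in a fit chosen after the values were seen, with the genes named here chosen by it. At an unadjusted p under 0.05 for the number in limma were 7 of 25 co-chaperones and heat shock factors (28%) and 5 of 16 genes of ER folding (31.2%), beside 16.9% of all genes, and none of them passed after adjustment. BAG3, the partner of HSPB8, was at 7.40, 7.76 and 7.02 in corneal clones 1, 2 and 3 and at 7.82, 7.92 and 7.13 in the conjunctival ones. As for HSPB8, clone 3 was the lowest of each tissue. BAG1 and HSBP1, which binds heat shock factor trimers, were also lowest in clone 3 of each tissue. HSF2, a heat shock factor, ran the other way, at 5.80 in cornea 3 and 5.92 in conjunctiva 3 and between 4.97 and 5.23 elsewhere.

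STIP1, which passes clients from HSP70 to HSP90, FKBP4 and PPID, both peptidyl-prolyl isomerases bound to HSP90, were lowest in clone 2 of each tissue. PPID was at 7.55 and 7.70 in clones 2 and at 8.08 to 8.37 in the others. The 5 ER folding genes were kept because of this fit, so that they order by number is no separate result. CALR, PDIA6 and ASNS were highest in clones 3. The lectin chaperone CALR was at 9.38 and 9.31 in clones 3 and at 8.90 to 9.00 in the others. The disulfide isomerase PDIA6 was at 10.68 and 10.58 against 10.00 to 10.33, and ASNS, the asparagine synthesis enzyme, at 9.84 and 9.72 against 9.00 to 9.33. The other 2 had other orders. PDIA4, a disulfide isomerase, was highest in clone 1 of each tissue, at 8.96, 7.92 and 8.54 in cornea and at 8.42, 7.93 and 8.37 in conjunctiva, and XBP1 was lowest in clone 1 of each tissue, at 7.80 and 8.15. Of 6 mitochondrial partners 1 was at an unadjusted p under 0.05 (16.7%), near the share of all genes. It was LONP1, a mitochondrial protease, highest in clones 3 at 7.58 and 7.51, against 6.74 to 7.35. Of 19 measured cell cycle genes 9 were at an unadjusted p under 0.05 in the same limma fit (47.4%, against 16.9% of all genes). This share was above those of the 3 partner lists. None of the 9 passed after adjustment, and the part of the cell cycle in the values of the partners was not tested.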
